A study of Homo sapiens with 4 samples.

Results

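The tubulins, kinesins, cytoplasmic dyneins and dynactin subunits of the human leukaemia cell line K562 were compared between cells with and without a knockdown of PHF8. The members were the genes whose symbols begin with TUBA, TUBB, TUBG, DYNC, DYNL, DCTN, KIFC or KLC, or with KIF and a digit. TUBB1 and KIF1BP were left out. The rule found 71 genes among the 11213 gene names in the deposited table, with 226 of its 32551 transcripts. Of these genes 22 had 1 transcript and the others had up to 15.

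RNA was sequenced from 4 libraries. K562 is a line of chronic myelogenous leukaemia cells, and every library came from this 1 line. The 2 control libraries (shControl) came from cells given a lentivirus with a control hairpin, and their genotype is labelled WT. The 2 knockdown libraries (shPHF8) came from cells given a lentivirus with a hairpin against PHF8, a histone demethylase, and their genotype is labelled PHF8 knockdown. All the cells had been selected with puromycin. Whether the numbered knockdown libraries share a hairpin is unclear from the labels, and separate cultures are not named. The p-values therefore measure only the spread between these libraries, which may be technical.

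Microtubules are hollow filaments of alpha and beta tubulin, and gamma tubulin in its ring complex starts new ones. Most kinesins walk along them towards the growing end, and some take microtubules apart or push spindle poles and chromosomes in dividing cells. Cytoplasmic dynein, with its cofactor dynactin, walks the other way. In cycling blood cells these proteins build the mitotic spindle, complete cytokinesis and place organelles, endosomes and vesicles.

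Levels are in TPM (transcript abundances corrected for transcript length), which sum to 1000000 in each library. A TPM is a share, so a change in abundant transcripts moves all others. The number of reads is unknown, and no counting error can be given. Gene values are sums over a gene's transcripts. A log2 difference is the shPHF8 mean less the shControl mean of log2(TPM + 1), over 2 libraries a group. It is given ± its standard error (SE) from limma, which draws each variance towards that of features of like level. This SE is thus not the observed spread of the libraries alone. The difference understates the change of genes at low TPM. The test was limma, fitted over all 10972 genes whose mean reached 1 TPM, and all 71 members passed that filter.

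Control libraries held PHF8 at 25.9 and 22.5 TPM, and the knockdowns held it at 6.06 and 6.42 TPM, so the labels and the targeted gene matched in all 4. The log2 difference of PHF8 was -1.80 ± 0.16 (adjusted p = 0.064). K562 cells make embryonic and fetal haemoglobin, and all 8 erythroid markers examined were present. Their summed level was 10233 and 11107 TPM in controls and 16640 and 15809 TPM in knockdowns. In limma 7 of 8 were higher at unadjusted p under 0.05, against 9.9% of all genes. Of 8 granulocyte and monocyte markers 4 were listed, LYZ, CD33, CD68 and ITGAM, and all 4 were lower, against 12.1% of all genes. Their summed level was 141 and 159 TPM in controls and 82.5 and 77.9 TPM in knockdowns. Of the other marker lists, TUBB1 was higher among 3 megakaryocyte markers tested (all genes: 9.9%). CD3D was lower among 2 lymphocyte markers and COL1A2 among 2 stromal markers (all genes: 12.1%). PPBP was listed at 0 in 3 libraries, and TUBB3 was the only neuronal marker analysed. The part of these shifts in the differences below was not tested.

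These sequences carry the transcript differences described below, taken from GENCODE release 29 on GRCh38 (the files were made on hg19) or, for the stretches before the DCTN4 starts, from RefSeq on GRCh38.p14. The first pair shows how the coding transcript of DYNLT1, a dynein light chain, differs from its intron-retaining transcripts. DYNLT1 lies at chr6:158636474-158644739 on the minus strand. Exon 3 is in lower case, and the capitals mark exon 4 in the first line and the unspliced intron 3 in the second.
DYNLT1-001: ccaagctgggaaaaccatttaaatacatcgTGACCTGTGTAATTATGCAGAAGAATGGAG
DYNLT1-002 and DYNLT1-003: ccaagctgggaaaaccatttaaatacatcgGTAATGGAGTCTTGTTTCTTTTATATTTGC

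The second set belongs to DCTN4, a dynactin subunit at chr5:150708440-150759109 on the minus strand, whose 2 main transcripts begin with different first exons. DCTN4-001 starts at base 150759109 and DCTN4-003 at base 150758520, 589 bases further along the gene. Both have 13 exons and share exons 2 to 12. DCTN4-003 lacks the first 171 coding bases of DCTN4-001, or 57 codons, which are shown first, with the 135 bases of the first exon in capitals and those of exon 2 in lower case. The next 2 lines are the bases just before each start, at chr5:150759110-150759267 and chr5:150758521-150758757.
DCTN4-001 coding start: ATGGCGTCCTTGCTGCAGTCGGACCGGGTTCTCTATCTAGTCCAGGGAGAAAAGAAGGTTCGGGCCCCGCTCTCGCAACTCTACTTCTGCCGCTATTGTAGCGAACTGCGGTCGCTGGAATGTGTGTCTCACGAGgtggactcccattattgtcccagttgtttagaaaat
DCTN4-001 upstream: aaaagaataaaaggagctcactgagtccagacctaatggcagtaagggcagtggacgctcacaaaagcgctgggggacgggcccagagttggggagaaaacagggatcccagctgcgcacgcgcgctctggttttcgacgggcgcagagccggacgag
DCTN4-003 upstream: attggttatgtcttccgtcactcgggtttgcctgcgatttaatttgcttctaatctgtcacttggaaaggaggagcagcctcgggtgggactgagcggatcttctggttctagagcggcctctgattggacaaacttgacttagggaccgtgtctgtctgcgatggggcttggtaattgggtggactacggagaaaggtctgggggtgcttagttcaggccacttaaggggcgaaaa
The stretch before DCTN4-003 lies wholly in intron 1 of DCTN4-001. Its 237 bases hold 51.9% G and C with 10 CG pairs, against 59.5% and 12 in the 158 bases before DCTN4-001.

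The third set shows what KIF20A-002 lacks. KIF20A, a kinesin needed for cytokinesis, lies at chr5:138178719-138187715 on the plus strand. The 54 capitals, at exon 3 of KIF20A-001, are 18 whole codons absent from KIF20A-002, flanked by 9 shared bases on each side.
KIF20A-001: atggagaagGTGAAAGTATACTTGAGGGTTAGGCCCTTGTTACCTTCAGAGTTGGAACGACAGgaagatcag

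The last pair shows the branch between 2 transcripts of TUBGCP3, a subunit of the gamma tubulin ring complex at chr13:112485005-112588205 on the minus strand. They share 2448 coding bases, of which the last 18 are in lower case. The capitals are the next 27 bases of TUBGCP3-001, which goes on for 276 coding bases, and the whole remaining end of TUBGCP3-002 with its stop codon.
TUBGCP3-001: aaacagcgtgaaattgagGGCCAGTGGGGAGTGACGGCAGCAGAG
TUBGCP3-002: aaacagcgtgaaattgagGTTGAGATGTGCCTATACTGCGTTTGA

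The 71 genes were centred near 0 and went both ways in the knockdown, and DYNLT1 had the largest difference of them. The members made up 0.926% and 0.928% of all TPM in the control libraries and 0.820% and 0.978% in the knockdown libraries, so the groups overlapped. No member, and none of the 10972 genes (0.0%), had an adjusted p under 0.05 in limma, where the smallest adjusted p over all genes was 0.055. At unadjusted p under 0.05, 5 members were higher (7.04%), against 9.9% of all genes, and 11 were lower (15.5%), against 12.1% of all genes. The 5 were TUBB, TUBGCP3, KIF20B, KIF5B and DYNC1H1, and the 11 were TUBA4A, TUBAL3, TUBB6, KIF18B, KIF5A, KIF7, KIFC3, KIF13A, KIF3A, DYNC2LI1 and DYNLT1. In either direction that was 22.5% of members and 22.0% of all genes. The median log2 difference was -0.0067 over the members and -0.018 over all genes.

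Without shControl replicate 2, 6 members were lower, and without shPHF8 replicate 2, 2 were higher. The count over all genes, 2414, was 1495 without shPHF8 replicate 2 and 1578 without shPHF8 replicate 1. Of the 16 members, DYNLT1, KIF5A, KIF7, KIFC3, TUBB and TUBGCP3 were under 0.05 without any 1 library. KIF13A was not without shPHF8 replicate 1, where its log2 difference was -0.39, and TUBA4A was not without shControl replicate 2, where it was -0.60. KIF18B was not without shControl replicate 2 (log2 difference -0.45) or shPHF8 replicate 1 (log2 difference -0.48). TUBAL3, TUBB6, KIF3A, KIF5B, KIF20B, DYNC1H1 and DYNC2LI1 lost it without 3 or more of the 4 libraries in turn, with their signs unchanged. In the fit without the trend TUBB, TUBB6, KIF20B, KIF5B and DYNC1H1 were not under 0.05, and after quantile normalization TUBAL3 and TUBB6 were not. With a block for the replicate number in the titles, KIF20B, KIF5B, DYNC1H1, KIF3A and DYNC2LI1 were not. A fit with a library left out leaves 1 library in that group and assumes that it varies like the others.

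**Figure D1:**
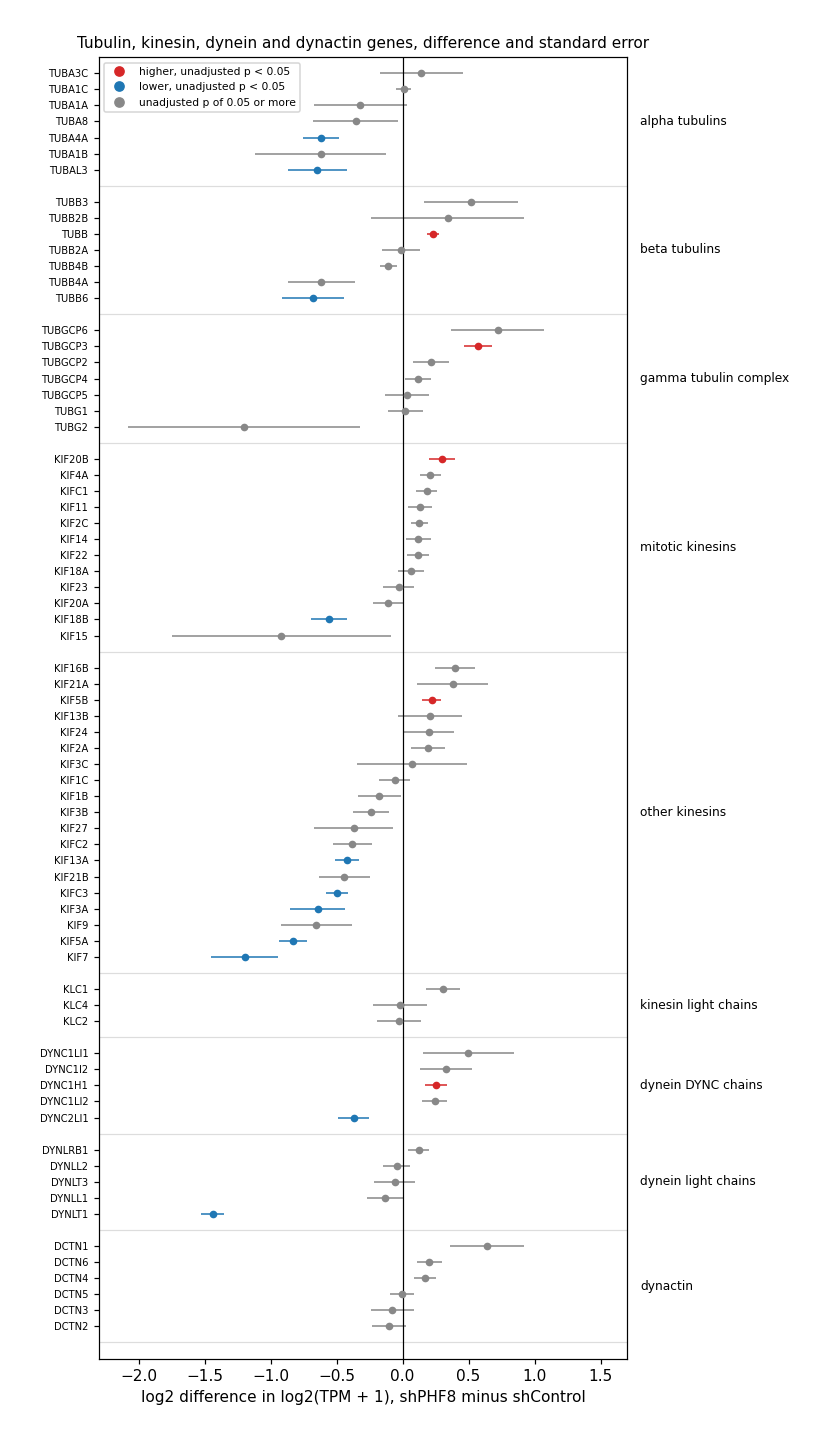
Log2 difference (shPHF8 minus shControl, on log2(TPM + 1)) of each of the 71 members by role, with bars of 1 standard error on the horizontal axis and colours for unadjusted limma p under 0.05. The point of DYNLT1 lies at -1.44, and the 5 coloured points on the right stand against 11 on the left.

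Individual libraries stood apart for several members, and the 2 knockdown libraries were not alike in all of them. TUBA1B, the most abundant alpha tubulin, was at 2055 and 2099 TPM in controls, at 824 TPM in shPHF8 replicate 1 and at 2214 TPM in shPHF8 replicate 2. Only shPHF8 replicate 1 was low, and the log2 difference of -0.62 ± 0.50 became 0.092 without it. TUBA1A was at 111 and 104 TPM in controls and at 60.7 and 121 TPM in knockdowns, again with shPHF8 replicate 1 low. The coding sequences of these neighbouring genes are 97.2% identical, so their division of reads is uncertain, and the same holds for TUBB2A and TUBB2B at 98.1%. KIF15, a spindle kinesin, was at 39.4 and 36.1 TPM in controls and at 45.7 TPM in shPHF8 replicate 1, but at 7.99 TPM in shPHF8 replicate 2. Without that library its log2 difference of -0.92 was 0.27, and without shPHF8 replicate 1 it was -2.11. DYNC1LI1, a dynein light intermediate chain, was at 66.8, 62.4 and 65.3 TPM in the first 3 libraries and at 128 TPM in shPHF8 replicate 2. Its log2 difference was 0.50 with all libraries and 0.015 without that one. TUBG2 was at 3.30, 5.35 and 4.16 TPM, and was listed at 0 in shPHF8 replicate 2.

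Among the alpha tubulins 2 of 7 genes were lower at unadjusted p under 0.05 (28.6%, against 12.1% of all genes). Of these tubulins none was higher, against 9.9% of all genes, and their median log2 difference was -0.36. Their summed level was 2916 and 2941 TPM in controls and 1628 and 3047 TPM in knockdowns, a gap set by TUBA1B. TUBA4A, an isotype abundant in platelets, was at 46.3 and 47.6 TPM in controls and 27.4 and 33.4 TPM in knockdowns. Both knockdown libraries were below both controls, with a log2 difference of -0.62 ± 0.14 (adjusted p = 0.13). TUBAL3, an alpha tubulin-like gene, was at 10.4 and 14.3 TPM in controls and 6.94 and 7.99 TPM in knockdowns (log2 difference -0.65 ± 0.22, adjusted p = 0.21). TUBA1C, the second most abundant alpha tubulin, was at 690 and 674 TPM against 706 and 667 TPM, and the groups overlapped, with a 95% interval of the log2 difference from -0.14 to 0.16. TUBA3C and TUBA8 were at or below 2.28 TPM in every library.

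The beta tubulins went both ways. TUBB, the most abundant member of all with TUBA1B, was at 2006 and 1892 TPM in controls and at 2288 and 2278 TPM in knockdowns. Both knockdown libraries were above both controls, and the mean was 117% of the control mean, with a log2 difference of 0.23 ± 0.05 (adjusted p = 0.12). TUBB6 was at 32.9 and 50.8 TPM in controls and at 25.2 and 25.3 TPM in knockdowns (log2 difference -0.68 ± 0.24, adjusted p = 0.22). Its controls were further apart than its knockdown libraries, and without shControl replicate 2 the difference was -0.37. TUBB4B, the second most abundant beta tubulin, was at 387 and 412 TPM in controls and at 380 and 362 TPM in knockdowns (log2 difference -0.11 ± 0.07, adjusted p = 0.42). TUBB4A was at 2.93 and 2.89 TPM in controls and at 1.72 and 1.40 TPM in knockdowns (adjusted p = 0.27). TUBB3, an isotype best known from neurons, was at 9.42 and 7.56 TPM against 8.97 and 17.4 TPM, and TUBB2B was at 10.6 and 35.1 TPM in the 2 controls alone, so neither separated the groups. TUBB and TUBA1B were the most abundant isotypes, followed by TUBA1C and TUBB4B, with every other alpha and beta tubulin at or below 121 TPM in each library. In both controls TUBA1B was above TUBB, and in both knockdown libraries TUBB was above TUBA1B.

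**Figure D2:**
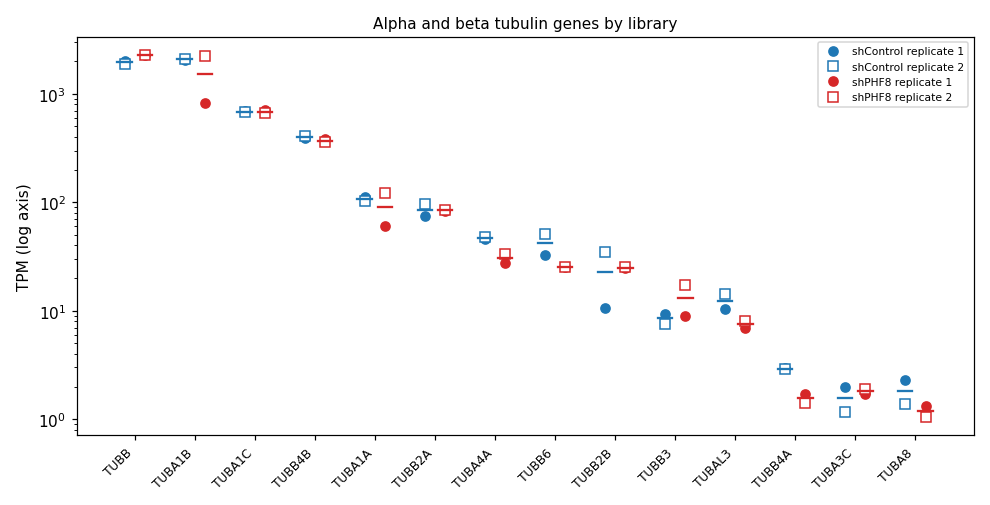
TPM of the 14 alpha and beta tubulin genes in each of the 4 libraries on a log axis, with short lines for the group means. Only TUBA1B and TUBA1A have shPHF8 replicate 1 well below the other libraries, and TUBB has both knockdown libraries above both controls.

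In the gamma tubulin ring complex 1 of 7 genes was higher (14.3%, against 9.9% of all genes) and none was lower (against 12.1%). Of these genes 4 had both knockdown libraries above both controls, where 26.0% of all genes did. TUBGCP3, a core subunit, was at 32.6 and 30.5 TPM in controls and at 48.0 and 46.7 TPM in knockdowns. The knockdown mean was 150% of the control mean, with a log2 difference of 0.57 ± 0.11 (adjusted p = 0.10). TUBGCP3-002, the transcript with the short end shown above, was at 8.69 and 7.99 TPM in controls and at 20.2 and 17.1 TPM in knockdowns. Its log2 difference was 1.07 ± 0.21 (adjusted p = 0.30), and without shPHF8 replicate 1 it was 0.96 and no longer under 0.05 unadjusted. TUBGCP3-001 was at 18.5 and 14.3 TPM against 16.3 and 17.9 TPM, and its groups overlapped. TUBGCP6, the largest subunit, was at 6.25 and 6.90 TPM in controls and at 8.14 and 16.0 TPM in knockdowns (adjusted p = 0.33). TUBG1, the main gamma tubulin, was at 90.7 and 101 TPM against 88.2 and 107 TPM, with a 95% interval of the log2 difference from -0.35 to 0.39.

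Of the 12 kinesins of mitosis and cytokinesis 1 was higher and 1 was lower at unadjusted p under 0.05. That is 8.33% each, against 9.9% and 12.1% of all genes. In 8 of the 12 both knockdown libraries were above both controls (all genes: 26.0%), and in 1 both were below (all genes: 29.3%). The median log2 difference was 0.12, and the summed level was 954 and 930 TPM in controls and 1004 and 995 TPM in knockdowns. KIF20B, which acts in late cytokinesis, was at 61.0 and 55.5 TPM in controls and at 72.4 and 71.3 TPM in knockdowns (log2 difference 0.30 ± 0.10, adjusted p = 0.20). KIF18B, which shortens astral microtubules with KIF2C, was at 38.2 and 44.6 TPM in controls and at 26.2 and 29.4 TPM in knockdowns. Its log2 difference was -0.56 ± 0.14 (adjusted p = 0.15), opposite in sign to that of KIF2C. KIF2C, the most abundant of these kinesins, was at 236 and 226 TPM in controls and at 248 and 257 TPM in knockdowns (log2 difference 0.13 ± 0.07, adjusted p = 0.35).

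Several spindle motors had small differences. KIF4A, a chromosome-bound motor that also shapes the central spindle, was at 78.7 and 76.9 TPM in controls and at 89.8 and 90.3 TPM in knockdowns (log2 difference 0.21 ± 0.08, adjusted p = 0.24). KIFC1, which pulls spindle poles together, was at 94.9 and 90.0 TPM against 105 and 105 TPM (adjusted p = 0.29). KIF11, which pushes the poles apart, was at 85.1 and 79.0 TPM against 87.7 and 92.2 TPM, with a 95% interval of the log2 difference from -0.11 to 0.38. KIF22, a chromosome-arm motor, was at 122 and 128 TPM against 132 and 140 TPM (adjusted p = 0.46). For each of these 4 genes both knockdown libraries were above both controls, and the knockdown means were 108.5% to 115.8% of the control means.

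KIF20A differed in a transcript and not, past the threshold, in its sum. The gene was at 47.5 and 45.5 TPM in controls and at 45.9 and 40.2 TPM in knockdowns, and its groups overlapped. KIF20A-002, which lacks the 54 bases shown above, was listed at 0 in both control libraries and was at 7.81 and 14.5 TPM in the knockdown libraries (adjusted p = 0.21). It made up 17% and 36% of the gene's TPM there. KIF20A-001 was at 47.5 and 45.5 TPM in controls and at 38.1 and 25.7 TPM in knockdowns (adjusted p = 0.56).

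Of the 19 other kinesins, which mainly carry cargo or act in cilia, 5 were lower (26.3%, against 12.1% of all genes) and 1 was higher (5.26%, against 9.9%). Their median log2 difference was -0.24, and in 10 both knockdown libraries were below both controls, as in 29.3% of all genes. KIF5A, a kinesin-1 heavy chain best known from neurons, was at 64.0 and 57.8 TPM in controls and at 34.0 and 33.7 TPM in knockdowns. That is 55.5% of the control mean, with a log2 difference of -0.83 ± 0.11 (adjusted p = 0.073). KIF5B, the kinesin-1 heavy chain of most tissues, was at 202 and 198 TPM in controls and at 225 and 241 TPM in knockdowns (log2 difference 0.22 ± 0.07, adjusted p = 0.20). The 2 heavy chains thus differed in opposite directions, and KIF5B was the more abundant in every library. Their coding sequences are 63.3% identical.

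KIF7, a ciliary kinesin of the Hedgehog pathway, was at 5.66 and 6.26 TPM in controls and at 2.45 and 1.67 TPM in knockdowns. The log2 difference was -1.20 ± 0.25 (adjusted p = 0.12), at levels low enough that the added 1 TPM holds it back. KIFC3, a minus-end directed kinesin, was at 109 and 117 TPM in controls and at 80.6 and 79.4 TPM in knockdowns (log2 difference -0.49 ± 0.08, adjusted p = 0.097). KIF13A, which moves endosomes, was at 76.2 and 73.5 TPM in controls and at 54.4 and 56.8 TPM in knockdowns (log2 difference -0.42 ± 0.09, adjusted p = 0.12). Its transcript KIF13A-006 was at 31.4 and 30.2 TPM in controls and at 16.1 and 13.5 TPM in knockdowns (log2 difference -1.02 ± 0.18, adjusted p = 0.27). KIF3A, a motor subunit of kinesin-2, was at 10.4 and 12.7 TPM in controls and at 7.89 and 6.24 TPM in knockdowns (log2 difference -0.64 ± 0.21, adjusted p = 0.20). Its partner KIF3B was at 21.2 and 23.5 TPM against 17.8 and 19.8 TPM, with both knockdown libraries below both controls (adjusted p = 0.39).

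The rest of the 19 other kinesins did not pass the threshold at unadjusted p under 0.05. KIF9 was at 36.9 and 22.4 TPM in controls and at 18.2 and 17.7 TPM in knockdowns (adjusted p = 0.26), and KIFC2 at 28.4 and 34.9 TPM against 23.7 and 24.2 TPM (adjusted p = 0.25). KIF16B, an early endosome motor, was at 12.4 and 13.8 TPM in controls and at 18.7 and 16.5 TPM in knockdowns (adjusted p = 0.25). KIF2A, a microtubule depolymerase and one of the more abundant kinesins, was at 190 and 163 TPM against 186 and 218 TPM. The kinesin light chains, which bind cargo to kinesin-1, had no member past the threshold. KLC1 was at 53.9 and 64.2 TPM in controls and at 75.9 and 70.2 TPM in knockdowns (log2 difference 0.31 ± 0.13, adjusted p = 0.27). KLC2 and KLC4 overlapped between the groups.

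DYNLT1, the Tctex-type light chain that sits on the dynein intermediate chains, had the log2 difference farthest from 0 among the 71 members. It was at 201 and 206 TPM in controls and at 78.2 and 70.9 TPM in knockdowns, and both knockdown libraries were far below both controls. The means were 204 ± 3.06 and 74.5 ± 5.14 TPM (SD, n = 2), so the knockdown mean was 36.6% of the control mean. The log2 difference was -1.44 ± 0.09, with a 95% interval from -1.68 to -1.20 (adjusted p = 0.055). Its adjusted p was 0.049 after quantile normalization. In all 11 alternative fits its unadjusted p was under 0.05, and its log2 difference lay between -1.51 and -1.37.

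The difference in DYNLT1 lay in its coding transcript. DYNLT1-001, whose exons 3 and 4 are joined as shown above, was at 188 and 190 TPM in controls and at 61.6 and 59.5 TPM in knockdowns (log2 difference -1.63 ± 0.08, adjusted p = 0.083). It has 5 exons, 726 bases and 342 coding bases. DYNLT1-002 has 2 exons, keeps introns 3 and 4 and starts 1951 bases further along the gene than DYNLT1-001. It was at 7.87 and 7.13 TPM in controls and at 5.37 and 4.87 TPM in knockdowns (adjusted p = 0.62). DYNLT1-003, which keeps intron 3, was at 5.51 and 8.85 TPM against 11.2 and 6.56 TPM, and its groups overlapped. The coding transcript therefore made up 93.4% and 92.2% of the gene's TPM in controls and 78.8% and 83.9% in knockdowns. The authors' division of reads among these overlapping transcripts is an estimate. The log2 difference was -0.47 ± 0.25 for DYNLT1-002 and 0.26 ± 0.41 for DYNLT1-003, whose sign turned without shControl replicate 1 (-0.038) or shPHF8 replicate 1 (-0.083).

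None of the other 4 dynein light chains passed the threshold at unadjusted p under 0.05. DYNLT3, the related Tctex-type chain with a coding sequence 67.7% identical to that of DYNLT1, was at 21.3 and 21.6 TPM in controls and at 22.7 and 18.6 TPM in knockdowns. Its log2 difference was -0.06 ± 0.15 (95% interval -0.48 to 0.36), an interval that does not overlap that of DYNLT1. DYNLL1, the most abundant light chain, was at 326 and 418 TPM against 330 and 342 TPM. DYNLL2, 79.6% identical in its coding sequence, was at 55.8 and 53.3 TPM against 50.4 and 55.3 TPM, and DYNLRB1, of the roadblock type, was at 171 and 180 TPM against 198 and 184 TPM. The summed level of the 5 light chain genes was 776 and 878 TPM in controls and 679 and 671 TPM in knockdowns.

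Of the 5 larger dynein chains 1 was higher and 1 was lower (20.0% each, against 9.9% and 12.1% of all genes). Their median log2 difference was 0.25. DYNC1H1, the motor subunit itself, was at 115 and 125 TPM in controls and at 139 and 147 TPM in knockdowns. Both knockdown libraries were above both controls, with a log2 difference of 0.25 ± 0.08 (adjusted p = 0.21). DYNC1LI2, a light intermediate chain that holds cargo adaptors, was at 69.4 and 73.8 TPM in controls and at 81.7 and 88.2 TPM in knockdowns (adjusted p = 0.24). DYNC1I2, the intermediate chain to which the light chains bind, was at 91.7 and 69.0 TPM against 89.1 and 113 TPM, and its groups overlapped. DYNC2LI1, which belongs to the ciliary dynein-2, was at 51.0 and 50.9 TPM in controls and at 36.6 and 42.0 TPM in knockdowns (log2 difference -0.37 ± 0.12, adjusted p = 0.19).

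In dynactin no gene of 6 passed the threshold, yet DCTN4 changed its leading transcript. DCTN4, a subunit of the pointed-end complex, had a gene sum of 111 and 102 TPM in controls and 119 and 121 TPM in knockdowns (log2 difference 0.17 ± 0.08, adjusted p = 0.33). DCTN4-001 was at 107 and 101 TPM in controls and at 4.31 and 6.62 TPM in knockdowns. That is a log2 difference of -4.05 ± 0.25 (adjusted p = 0.089). DCTN4-003, with the other first exon, was listed at 0 and at 0.305 TPM in controls and was at 111 and 114 TPM in knockdowns. Its log2 difference was 6.63 ± 0.25 (adjusted p = 0.074), a size that depends on the added value and was 9.13 with 0.1 TPM added. DCTN4-001 made up 97.1% and 99.6% of the gene's TPM in controls and 3.63% and 5.49% in knockdowns.

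**Figure D3:**
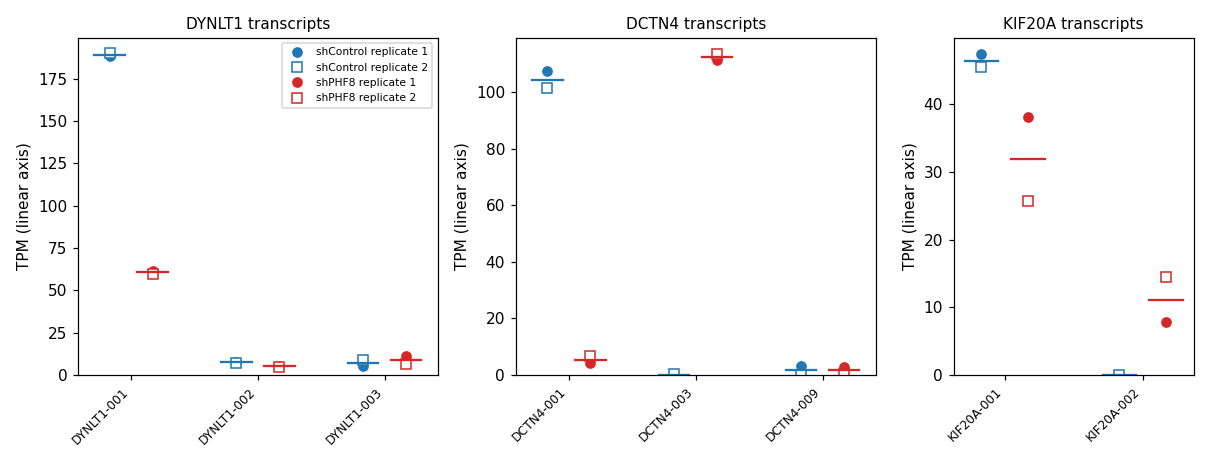
TPM of the transcripts of DYNLT1, DCTN4 and KIF20A in each library on linear axes, with short lines for the group means. DYNLT1-001 is low in both knockdown libraries, DCTN4-001 and DCTN4-003 trade places at 101 to 114 TPM, and KIF20A-002 is above 0 only in knockdown libraries.

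The exchange in DCTN4 was nearly complete in both knockdown libraries, with no change of the gene sum past the threshold. Among the other dynactin genes DCTN1, the subunit that binds microtubules, was at 28.9 and 20.1 TPM in controls and at 31.1 and 46.6 TPM in knockdowns (log2 difference 0.64 ± 0.28, adjusted p = 0.29). DCTN6 was at 89.8 and 81.0 TPM against 97.6 and 99.0 TPM (adjusted p = 0.30), and DCTN2, DCTN3 and DCTN5 overlapped between the groups. DCTN5, also of the pointed end, was at 53.1, 53.6, 53.0 and 53.2 TPM, with a 95% interval of the log2 difference from -0.25 to 0.24.

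A change of leading transcript was looked for in all genes with 2 or more transcripts. Of 49 such members, 29 had the same leading transcript in all 4 libraries, and in 18 the 2 libraries of a group disagreed. In 2 members, DCTN4 and DYNC1I2, both knockdown libraries led with another transcript than both controls, which is 2 of 49 members against 3.68% of 7717 genes. With a shift of at least 50 percentage points required, DCTN4 remained, and 0.855% of genes met that rule. DYNC1I2 moved from DYNC1I2-013, at 38.7% and 27.8% of the gene's TPM in controls, to DYNC1I2-002, at 23.4% and 33.2% in knockdowns, so no transcript dominated there. KIFC3 shows how 1 library can differ: KIFC3-007 was at 46.0, 42.6 and 34.0 TPM in both controls and shPHF8 replicate 2 and near 0 in shPHF8 replicate 1. KIFC3-003 was at 49.9 TPM in shPHF8 replicate 1 and at or below 0.154 TPM in the other 3 libraries, while the gene sum was alike in both knockdown libraries.

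Over all member transcripts, 207 of 226 had a mean of at least 1 TPM and were tested. Of these 8 were higher and 12 lower at unadjusted p under 0.05, where 4.91% and 5.38% of the 30266 transcripts tested were (10.3% in either direction). None had an adjusted p under 0.05, and 1 of all transcripts did (0.0033%). Of the 121 member transcripts with a mean of at least 5 TPM, 8 had p under 0.01, and 4.3% of all such transcripts did. They were DYNLT1-001, DCTN4-001, DCTN4-003, KIF20A-002, TUBGCP3-002, KIF13A-006, KIF5A-001 and TUBB-001. The last was at 1872 and 1792 TPM in controls and at 2164 and 2138 TPM in knockdowns, and without either knockdown library its unadjusted p was not under 0.05 (log2 differences 0.22 and 0.24), nor was it in the fit without the trend.

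**Figure D4:**
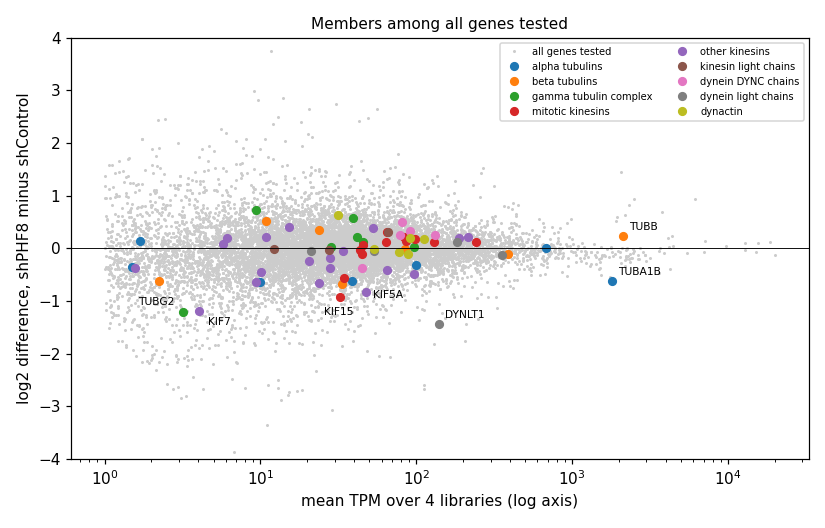
Log2 difference of the members (coloured by role) against their mean TPM on a log axis, over all 10972 genes tested (grey). TUBB and TUBA1B lie at the right among the most abundant genes, and DYNLT1 lies at -1.44, apart from the other members of its level.

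Genes outside the naming rule that act on microtubules were read from 5 lists with 86 genes, of which 77 were tested. At unadjusted p under 0.05, 15 were higher (19.5%, against 9.9% of all genes) and 9 were lower (11.7%, against 12.1%). The mitotic partners had 5 of 13 higher and 2 lower, with a median log2 difference of 0.19. PRC1, which bundles the central spindle and docks KIF4A, was at 81.0 and 83.2 TPM in controls and at 124 and 140 TPM in knockdowns (log2 difference 0.68 ± 0.10, adjusted p = 0.083). NUSAP1, a spindle-bundling protein, was at 163 and 142 TPM in controls and at 204 and 211 TPM in knockdowns (log2 difference 0.44 ± 0.10, adjusted p = 0.12), while CENPE, BIRC5 and ECT2 were also higher. NUSAP1 was not under 0.05 unadjusted without shPHF8 replicate 2, where its log2 difference was 0.42. CDCA8, a subunit of the chromosomal passenger complex, was at 134 and 144 TPM in controls and at 91.8 and 92.6 TPM in knockdowns (log2 difference -0.58 ± 0.08, adjusted p = 0.078). Of the same complex AURKB was lower too, BIRC5 was higher, and INCENP was not under 0.05 unadjusted.

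Of the dynein regulators and adaptors 4 of 13 were higher (30.8%, against 9.9% of all genes) and 2 were lower (15.4%, against 12.1%). Their median log2 difference was 0.015. RILP, which links late endosomes to dynein, was at 35.0 and 31.9 TPM in controls and at 56.35 and 50.03 TPM in knockdowns (log2 difference 0.65 ± 0.12, adjusted p = 0.10). BICD2, an activating adaptor, was at 26.96 and 24.95 TPM against 34.7 and 34.7 TPM (adjusted p = 0.16), and PAFAH1B1 and NDE1 were higher as well. HOOK2 was at 18.7 and 22.7 TPM in controls and at 9.20 and 13.2 TPM in knockdowns (log2 difference -0.85 ± 0.23, adjusted p = 0.16), and SPDL1 was lower. BICD2 and HOOK2 each lost the threshold without 3 of the 4 libraries in turn.

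Of the tubulin folding genes 2 of 19 were higher (10.5%, against 9.9% of all genes) and 3 were lower (15.8%, against 12.1%). Their median log2 difference was -0.051. PFDN2, a prefoldin subunit, was at 287 and 314 TPM in controls and at 77.6 and 157 TPM in knockdowns (log2 difference -1.44 ± 0.36, adjusted p = 0.14), and PFDN6 at 310 and 346 TPM against 271 and 256 TPM (adjusted p = 0.16). Without either control PFDN2 was not under 0.05 unadjusted (log2 differences -1.50 and -1.37), and it was at -0.93 without shPHF8 replicate 1 and at -1.94 without shPHF8 replicate 2. PFDN6 lost the threshold without 3 of the 4 libraries in turn and in the fit without the trend. TBCD, which helps assemble the tubulin dimer, was at 29.6 and 28.7 TPM in controls and at 43.39 and 45.03 TPM in knockdowns (log2 difference 0.58 ± 0.10, adjusted p = 0.10). Of the tubulin-modifying genes 2 of 11 were higher (18.2%, against 9.9% of all genes) and none was lower (against 12.1%). AGTPBP1, which trims glutamate side chains from tubulin, was at 8.64 and 7.30 TPM in controls and at 14.3 and 14.3 TPM in knockdowns (log2 difference 0.77 ± 0.17, adjusted p = 0.12). TTLL12 was higher too, but was not under 0.05 unadjusted with the replicate block. Of 21 tip, stabilising and severing proteins 2 were higher, MAP4 and KATNAL1 (9.52%, against 9.9% of all genes). Another 2 were lower (9.52%, against 12.1%). STMN3, a stathmin, was at 46.0 and 49.5 TPM in controls and at 31.4 and 27.7 TPM in knockdowns (log2 difference -0.68 ± 0.12, adjusted p = 0.10). MAP4 and TTLL12 each lost the threshold without 3 of the 4 libraries in turn, and TTLL12 also in the fit without the trend.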

How the data were processed

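RNA was sequenced from 4 K562 libraries, grouped by title and treatment as 2 shControl and 2 shPHF8. The authors deposited transcript abundances in TPM, per the file headers, and beside them a signal column per library of unstated unit, an exact multiple of TPM, that was used for no result. HISAT2 2.0.4, StringTie 1.2.3 and build hg19 are named, per the submitters' processing notes; no annotation or strandedness is given in the sources used here. Depth is unknown, and only the spread between libraries shows the precision.

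TPM were summed per gene name and tested as log2(TPM + 1), with a mean of at least 1 TPM, by limma 3.58.1 (empirical Bayes with trend, two-sided; R 4.3.3). Adjustment was by Benjamini-Hochberg over all genes or all transcripts, and the threshold was 0.05. The fit had 2 residual and 2.16 prior degrees of freedom. The exact permutation test of 2 against 2 libraries cannot go below p = 0.333 (two-sided), so none is reported. The alternatives were a pseudocount of 0.1, a mean of at least 5 TPM, no filter, median-of-ratios scaling, quantile normalization, no trend, a replicate block and each library left out. In simulated data with 10972 genes, only a small part of them was changed. At adjusted p under 0.05 the limma fit called 21.2% of genes raised by 1 on the log2 scale and 67.6% of those raised by 2. These shares depend on the part of genes changed, which is unknown for the real libraries. At unadjusted p under 0.05 the fit called 84% of genes raised by 1 and 5.67% of unchanged genes.

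The members, role groups and lists were chosen with earlier results of these data known. The naming rule took, per role group, the 3 smallest p and the 3 highest means, the 5 largest differences at p under 0.05, transcripts at p under 0.01 with a mean of at least 5 TPM, and the 3 smallest p of each other list; 1 gene so named is not reported here. Further members, 4 further transcripts and the leading-transcript counts were chosen after their values were seen. Of the 226 member transcripts 222 matched GENCODE release 29 (GRCh38), which gave transcript types, sequences and coordinates. Identity was computed over global alignments of the longest coding sequences. Python 3.11.15, pandas 2.3.3 and matplotlib 3.10.9 were used.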

Additional observations from a re-analysis of the deposited data

How the results depend on the processing

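Beside the 0 genes with an adjusted p under 0.05, quantile normalization gave 37, of which 1 was a member (DYNLT1), and the other alternatives gave 0. Of transcripts, 1 passed, with 4 at a mean of at least 5 TPM, 4 after quantile normalization, 0 without the trend, 0 with the replicate block and 0 to 0 without each library. Genes at unadjusted p under 0.05 were 2414, and 1495 to 2210 without each library. Members higher were 5, with 2 without the trend, 2 with the replicate block and 2 to 7 without each library; members lower were 11, with 6 to 12. Over genes, deviations from the group means had a correlation of -0.029 between the 2 libraries numbered 1 in the titles. With 2 libraries a group those numbered 2 mirror this value. It cannot show whether libraries of the same number were prepared together. With the replicate block 1949 genes and 2 higher and 9 lower members were under 0.05.

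Log2 differences that reversed were DCTN5 0.0086 and TUBB2A 0.0036 with median-of-ratios scaling, and DCTN5 0.0030, KLC4 0.0056 and TUBG1 -0.017 with quantile normalization. With each library left out in turn, those that reversed ranged as follows: DCTN2 -0.22 to 0.016, DCTN3 -0.28 to 0.13, DCTN5 -0.014 to 0.0010, DYNLL1 -0.31 to 0.042, DYNLL2 -0.11 to 0.020, DYNLT3 -0.20 to 0.080, KIF13B -0.061 to 0.47, KIF15 -2.11 to 0.27, KIF1B -0.35 to 0.00024, KIF1C -0.14 to 0.017, KIF23 -0.12 to 0.065 and KIF3C -0.45 to 0.59. The same ranges were KLC2 -0.17 to 0.11, KLC4 -0.22 to 0.18, TUBA1A -0.81 to 0.17, TUBA1B -1.33 to 0.092, TUBA1C -0.031 to 0.050, TUBA3C -0.085 to 0.37, TUBB2A -0.19 to 0.17, TUBB2B -0.48 to 1.16, TUBG1 -0.12 to 0.16, TUBGCP5 -0.15 to 0.21, TUBGCP3-001 -0.11 to 0.24 and DYNLT1-003 -0.083 to 0.61. None of these was under 0.05 with all libraries. The cause was not tested. The next counts cover all 71 members, PHF8, the other named genes and the named transcripts. Of their values 982 stayed on their side of the threshold, 63 lost it, 23 gained it and 37 reversed. Values of genes that were not under 0.05 in any fit are among the 982. A mean of at least 5 TPM removed the members below it. The transcript values rest on the authors' division of reads, and the unknown depth gives no limit for values near 0.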
